A study of Homo sapiens with 21 samples.

Results

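Base excision repair and the repair of single-strand breaks were followed through the RNA levels of 10 genes in hTERT-HPNE cells, a human pancreatic cell line kept growing by telomerase (hTERT). The genes were taken by name, as a set put together with earlier results of these data known. They were the DNA glycosylase genes OGG1, MUTYH, NTHL1, NEIL1 and UNG, the endonuclease gene APEX1, the break sensor PARP1 and its partner XRCC1, the polymerase gene POLB and the ligase gene LIG3. All 10 had a row in the table of 23368 genes, and all 10 were among the 19694 genes with a value that varied across libraries. RNA-seq covered 7 groups of 3 biological replicates. The groups were untreated cells, taken at 0 h, and treated cells, taken 4, 8 or 24 h after treatment. Treatment was with either 300 μM H2O2, which oxidizes bases and breaks single strands, or 400 ng/ml neocarzinostatin (NCS). NCS is a radiomimetic drug that the authors used as a source of double-strand breaks. The medium was replaced when the drug or H2O2 was added and untreated cells were taken at 0 h only, so time in fresh medium and treatment cannot be told apart in comparisons with untreated cells. The sources used here do not say whether the RNA came from the parental line or from its single-cell reporter clone.

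In base excision repair, a glycosylase cuts a damaged or wrong base from its sugar, and APEX1 nicks the backbone at the empty site. POLB fills the gap of a single nucleotide and LIG3, held by the scaffold XRCC1, seals the nick. PARP1 binds single-strand breaks, marks itself and its surroundings with poly(ADP-ribose) and thereby draws XRCC1 to the break. A long-patch route replaces several nucleotides with enzymes that also copy the genome in S phase, such as PCNA, FEN1 and LIG1.

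The deposited rLog values are log2 read counts, normalized for library size and shrunk towards each gene's mean, the more so the fewer its reads. Sequencing depth is unknown, since no read counts came with them. The values are not divided by gene length, so levels are compared between groups and not between genes. The cells are measured in bulk, and fewer cells with an RNA cannot be told apart from less of it per cell. Library medians lay between 7.145 and 7.189. Among markers of the line, NES lay between 11.78 and 12.28 and VIM between 16.79 and 17.25. Of 4 acinar markers, PRSS1 and CELA3A were listed at 0 in every library, as was INS of 3 endocrine markers. The other 2 acinar and 2 endocrine markers had values that varied. Against untreated cells only 1 of these passed the test described next, an endocrine marker higher in H2O2 at 4 h (log2 difference 0.02). EPCAM stayed at or below -1.74. Among 5 epithelial markers, EPCAM, KRT19 and CDH1 passed that test in none of the comparisons of 4 and 24 h groups with untreated cells. KRT8 was higher in H2O2 at 4 h (log2 difference 0.39) and at 24 h in both treatments, and KRT18 was higher at 4 h and lower at 24 h in both. In H2O2 at 8 h, 1 of the 5 passed as higher and 1 as lower, where 18.8% and 18.6% of all genes passed. In NCS at 8 h, 0 of the 5 passed. H2O2 8 h replicate 2 stood farther from the mean of its group than the other 20 libraries from theirs, with a root mean square distance of 0.0656 over genes against 0.0372 to 0.0533. Results at 8 h are given with and without it where it bears on them.

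Groups were compared with limma over all genes at once. The p-value adjusted for all genes tested is written q, and a difference passed where q was under 0.05. At 24 h most of the 10 genes were lower than in untreated cells under both treatments. In H2O2 at 24 h, 7 of 10 passed as lower and 2 as higher, where 19.9% and 20.2% of all genes tested passed in these directions. In NCS at 24 h, 8 of 10 passed as lower and 0 as higher, against 18.4% and 19.6% of all genes. The median log2 difference of the 10 genes was -0.15 in H2O2 and -0.20 in NCS, while the median of all genes tested was -0.00034 and -0.00014. Both comparisons use the same untreated libraries.

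Fewer of the 10 genes passed at 4 and 8 h than at 24 h in each treatment. In H2O2 at 4 h, 2 genes were higher (NTHL1, NEIL1) and 3 lower (XRCC1, PARP1, LIG3), against 26.2% and 19.7% of all genes. In H2O2 at 8 h, 0 were higher and 5 lower (NTHL1, UNG, XRCC1, PARP1, LIG3), against 18.8% and 18.6% of all genes. In NCS at 4 h, 2 were higher (MUTYH, POLB) and 1 lower (UNG), where 7.47% and 9.72% of all genes passed. In NCS at 8 h, 0 were higher and 4 lower (UNG, APEX1, XRCC1, PARP1), where 10.5% and 13.3% of all genes passed. No difference of a member exceeded 1 in size in any of the 12 comparisons. Wherever the 3 libraries of one group did not overlap the 3 of the other, the two-sided exact permutation p-value of that gene was 0.1, the smallest this design can give.

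**Figure D1:**
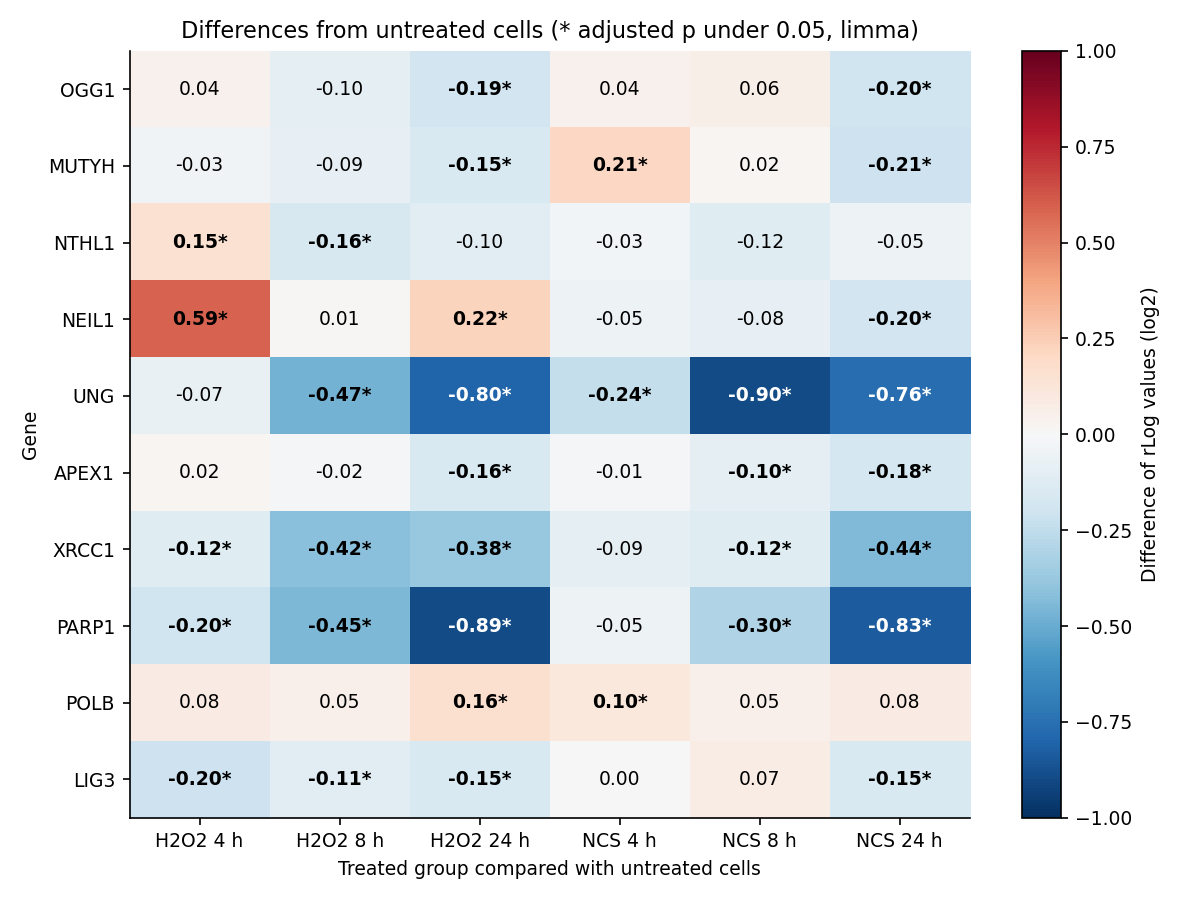
Log2 differences of rLog group means between each treated group (columns) and untreated cells for the 10 genes (rows), with color from blue (lower) to red (higher) and an asterisk where the adjusted p-value from limma was under 0.05. The darkest cells are PARP1 at 24 h (-0.89 in H2O2, -0.83 in NCS), UNG at 8 and 24 h in NCS (-0.90, -0.76) and UNG at 24 h in H2O2 (-0.80), and the only strong red cell is NEIL1 in H2O2 at 4 h (0.59).

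The 10 genes differed in how far they moved. The means of the 7 groups spanned 0.90 for UNG, 0.89 for PARP1 and 0.79 for NEIL1. They spanned 0.44 for XRCC1 and 0.42 for MUTYH, then 0.31 for NTHL1, 0.28 for LIG3, 0.25 for OGG1, 0.20 for APEX1 and 0.16 for POLB. The SD of replicates within a group was at most 0.13 for any of the 10 genes. UNG, XRCC1 and PARP1 were lower in 5 of the 6 comparisons with untreated cells and higher in 0. POLB was the only one of the 10 that passed as lower in none of the 6 comparisons.

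**Figure D2:**
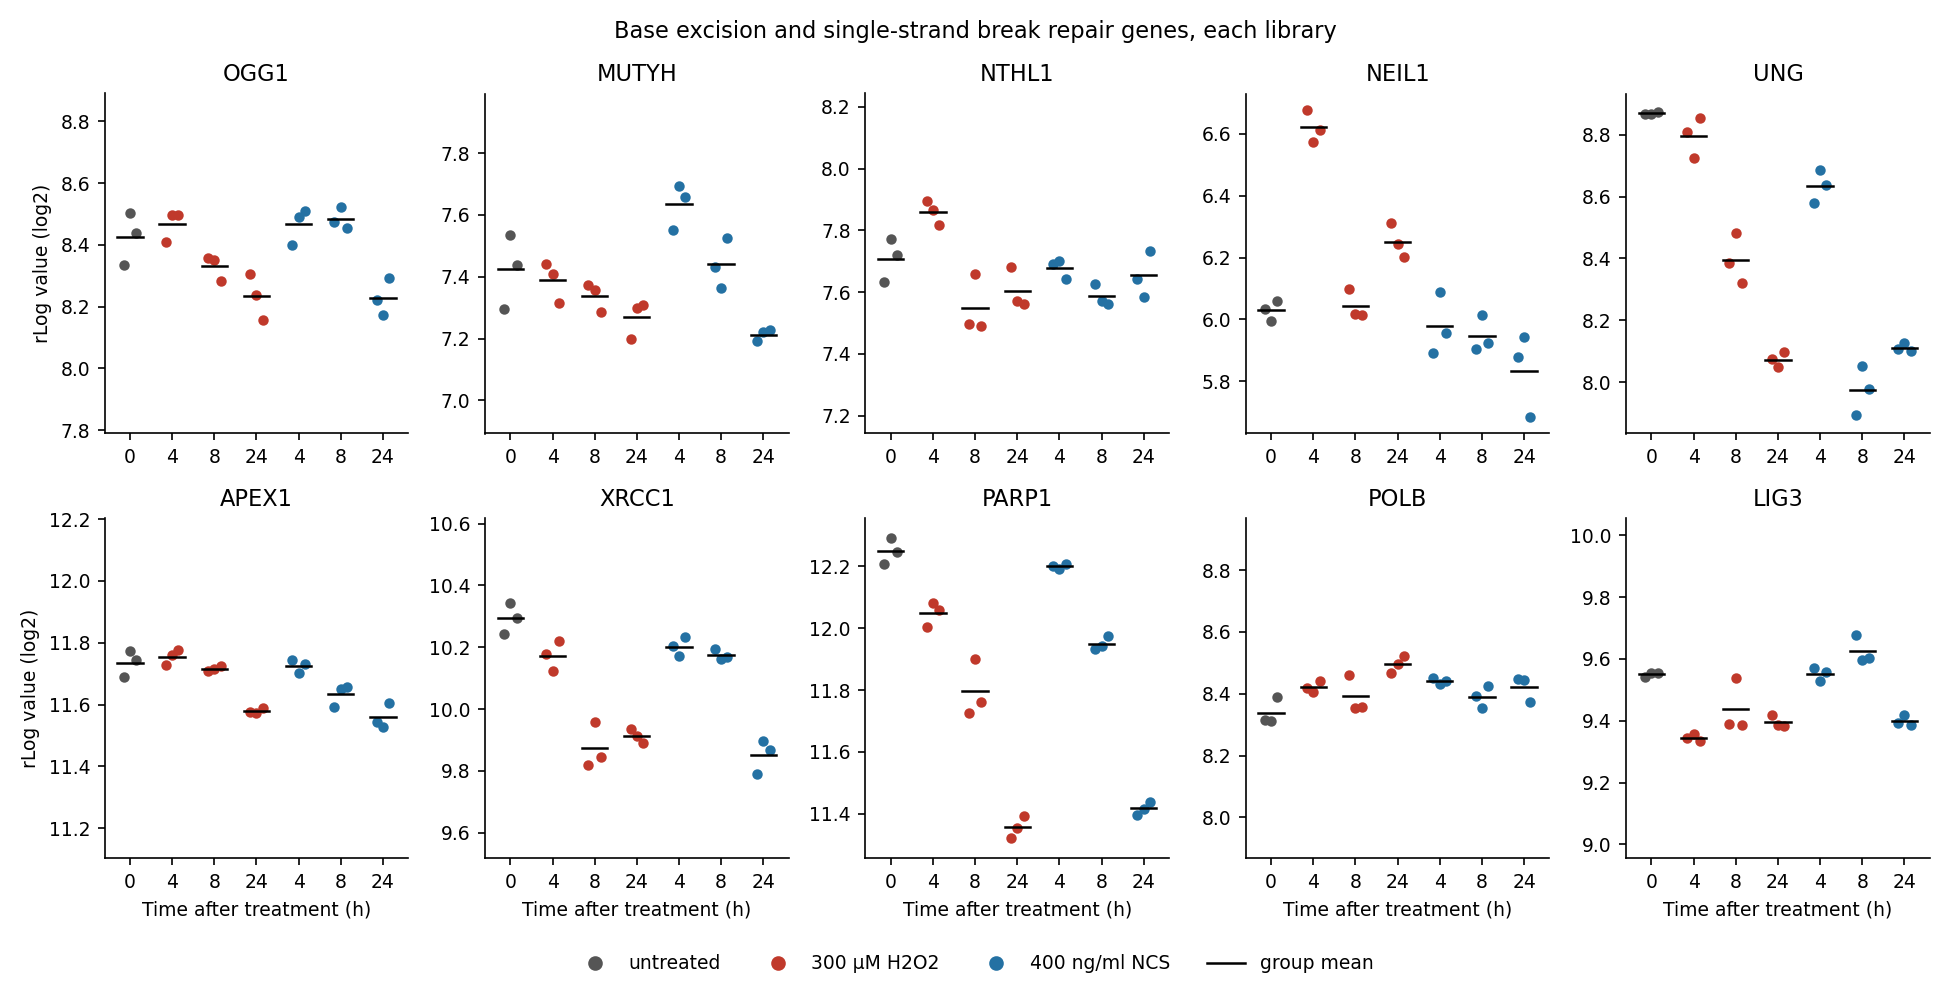
rLog value (log2) of each of the 10 genes in each of the 21 libraries, by time after treatment, for untreated cells (grey), 300 μM H2O2 (red) and 400 ng/ml NCS (blue), with group means as black lines and every vertical axis spanning the same number of log2 units. PARP1 and UNG fall in both treatments, NEIL1 peaks at 4 h in H2O2, and OGG1, APEX1 and POLB stay within narrow bands.

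PARP1, the sensor that binds a nicked strand, fell progressively under both treatments. The untreated libraries had values of 12.21, 12.29 and 12.25. In H2O2 the libraries had 12.01, 12.08 and 12.06 at 4 h, 11.72, 11.90 and 11.76 at 8 h, then 11.32, 11.35 and 11.39 at 24 h. In every H2O2 group all 3 libraries lay below all untreated ones, and the 3 times did not overlap each other. The log2 differences were -0.20 at 4 h (SE 0.03, q = 0.000118), -0.45 at 8 h (q = 1.18e-08) and -0.89 at 24 h (q = 2.49e-13). Without H2O2 8 h replicate 2, the difference at 8 h was -0.51. In NCS the libraries had 12.20, 12.19 and 12.21 at 4 h, 11.93, 11.94 and 11.98 at 8 h, then 11.40, 11.42 and 11.44 at 24 h. The difference at 4 h was -0.05 and did not pass (q = 0.452, 95% interval -0.12 to 0.03). It was -0.30 at 8 h (q = 2.98e-06) and -0.83 at 24 h (q = 6.57e-13). At 24 h the value on a linear scale was 0.539 of that in untreated cells in H2O2 and 0.562 in NCS, ratios that rLog shrinkage draws towards 1.

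Set directly against NCS, PARP1 was lower in H2O2 by a log2 difference of -0.15 at 4 h (q = 0.00161) and -0.15 at 8 h (q = 0.00196). The 8 h call was lost in a fit of only the groups compared (q = 0.0616), and the difference was -0.21 without H2O2 8 h replicate 2. At 24 h the difference was -0.06 (q = 0.268, interval -0.13 to 0.01), and it passed with library medians aligned (q = 0.0369). Of 3070 genes with a mean of at least 5 and group means spanning at least 0.5, those with the pattern most like that of PARP1 over the 7 group means were CCDC138 (Pearson r = 0.999), POLE2, a subunit of the replicative polymerase epsilon (r = 0.998), and NEDD1, which anchors gamma-tubulin at centrosomes (r = 0.996). These are the highest of many correlations over 7 means taken from the same libraries.

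The PARP1 promoter is shown because this gene fell in both treatments. RefSeq lists 1 start site for it, and the window of 250 bases before to 50 after it lies on the minus strand of GRCh38.p14 at chr1:226408044-226408343. It held no match, on either strand, to the E2F letters TTTCCCGC, TTTGGCGC, TTTCGCGC or TTTGCCGC, to the antioxidant response element TGACNNNGC, to the AP-1 site TGANTCA or to the cAMP response element TGACGTCA.
PARP1: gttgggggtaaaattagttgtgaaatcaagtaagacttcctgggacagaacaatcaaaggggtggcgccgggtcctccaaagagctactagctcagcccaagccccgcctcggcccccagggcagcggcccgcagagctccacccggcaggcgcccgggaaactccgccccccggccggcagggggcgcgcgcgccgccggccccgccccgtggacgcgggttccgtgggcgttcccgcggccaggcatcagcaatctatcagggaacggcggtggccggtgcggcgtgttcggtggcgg

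XRCC1, the scaffold that carries LIG3 and POLB to the break, fell as well. Untreated libraries had 10.24, 10.34 and 10.29. H2O2 libraries had 10.18, 10.12 and 10.22 at 4 h, 9.82, 9.96 and 9.85 at 8 h, then 9.94, 9.91 and 9.89 at 24 h. NCS libraries had 10.20, 10.17 and 10.23 at 4 h, 10.19, 10.16 and 10.17 at 8 h, then 9.79, 9.90 and 9.87 at 24 h. All 18 treated libraries lay below the lowest untreated one. In H2O2 the differences were -0.12 at 4 h (q = 0.0123), -0.42 at 8 h (q = 5.46e-08) and -0.38 at 24 h (q = 8.99e-08). In NCS they were -0.09 at 4 h, which did not pass (q = 0.111), -0.12 at 8 h (q = 0.0246) and -0.44 at 24 h (q = 1.28e-08). H2O2 was below NCS at 8 h by -0.30 (SE 0.04, q = 4.32e-06), or -0.34 without H2O2 8 h replicate 2. At 4 h the treatments differed by -0.03 (interval -0.11 to 0.05) and at 24 h by 0.06 (interval -0.02 to 0.14), and neither passed. The smaller calls were less firm. The one in H2O2 at 4 h was lost without untreated replicate 2 or H2O2 4 h replicate 2 (q = 0.0684 to 0.0699) and under quantile normalization (q = 0.0901). The one in NCS at 8 h was lost without untreated replicate 2 or 3 or NCS 8 h replicate 2 or 3 (q = 0.0577 to 0.123) and under quantile normalization (q = 0.0944).

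UNG, the glycosylase that removes uracil, fell in both treatments but along different courses. Untreated libraries had 8.87, 8.87 and 8.87. H2O2 libraries had 8.81, 8.72 and 8.85 at 4 h, 8.39, 8.48 and 8.32 at 8 h, then 8.07, 8.05 and 8.10 at 24 h. NCS libraries had 8.58, 8.69 and 8.64 at 4 h, 7.89, 8.05 and 7.98 at 8 h, then 8.11, 8.13 and 8.10 at 24 h. In H2O2 the lowest libraries were those at 24 h, and in NCS those at 8 h. Against untreated cells the difference in H2O2 was -0.07 at 4 h (q = 0.188), -0.47 at 8 h (q = 1.16e-07) and -0.80 at 24 h (q = 3.60e-11). In NCS it was -0.24 at 4 h (q = 0.000827), -0.90 at 8 h (q = 6.66e-11) and -0.76 at 24 h (q = 8.01e-11).

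The treatments differed most at 8 h, when UNG was 0.42 higher in H2O2 than in NCS (SE 0.04, q = 8.07e-07), or 0.38 without H2O2 8 h replicate 2. At 4 h it was 0.16 higher in H2O2 (q = 0.00626), and at 24 h the difference was -0.04 (q = 0.660, interval -0.13 to 0.05). Of 8 S-phase genes, 4 were above their NCS level in H2O2 at 8 h, 1 was below it and 3 did not pass, with a median difference of 0.10, where 18.7% and 15.4% of all genes passed as higher and lower. They ranged from MCM5 (-0.17, q = 0.000252) to MCM3 (0.38, q = 3.50e-06), both subunits of the replicative helicase. Over the 7 group means, the genes most like UNG were the chromatin protein gene CBX3 (Pearson r = 0.970), CDCA7 (r = 0.960) and TMEM200B (r = 0.947) of the same 3070 genes.

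UNG has alternative starts that give rise to nuclear and mitochondrial forms of the enzyme, and the values sum over them. Both RefSeq promoter windows are shown because UNG changed in both treatments and because one of them holds the only match to the E2F letters among the 14 windows found for 9 of the 10 genes. Both lie on the plus strand of chromosome 12 in GRCh38.p14, window 1 at chr12:109097347-109097646 and window 2 at chr12:109097922-109098221. The capitals mark TTTGCCGC, which begins at position -63 from the start site of window 2. Of 35116 RefSeq windows of the same length, 3.31% held one of the E2F letter strings.
UNG window 1: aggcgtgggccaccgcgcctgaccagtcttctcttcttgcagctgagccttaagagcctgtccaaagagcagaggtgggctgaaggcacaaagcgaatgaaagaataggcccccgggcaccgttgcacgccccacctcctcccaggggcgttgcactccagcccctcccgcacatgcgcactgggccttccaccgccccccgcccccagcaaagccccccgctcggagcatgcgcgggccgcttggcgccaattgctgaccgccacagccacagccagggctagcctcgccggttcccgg
UNG window 2: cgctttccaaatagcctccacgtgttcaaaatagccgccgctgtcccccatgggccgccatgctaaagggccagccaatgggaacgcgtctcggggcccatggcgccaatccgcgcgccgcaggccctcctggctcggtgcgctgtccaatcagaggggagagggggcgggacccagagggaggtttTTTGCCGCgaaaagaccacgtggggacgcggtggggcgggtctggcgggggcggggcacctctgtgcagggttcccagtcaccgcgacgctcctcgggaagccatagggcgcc

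NEIL1, a glycosylase for oxidized pyrimidines, was the member that rose most, and it rose in H2O2 at 4 h. Untreated libraries had 6.03, 5.996 and 6.06, and H2O2 libraries at 4 h had 6.68, 6.57 and 6.61. The NCS libraries at 4 h had 5.89, 6.09 and 5.96, so all 3 H2O2 libraries stood above both other groups. The difference from untreated cells was 0.59 (SE 0.06, q = 4.13e-07), which is 1.51-fold on a linear scale, and that from NCS at 4 h was 0.64 (q = 1.52e-07). At 8 h the H2O2 libraries had returned to 6.10, 6.02 and 6.01, a difference of 0.01 from untreated cells (q = 0.938, interval -0.12 to 0.15).

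At 24 h the NEIL1 values of the treatments parted again. H2O2 libraries had 6.31, 6.24 and 6.20, above untreated cells by 0.22 (q = 0.00786). NCS libraries had 5.88, 5.94 and 5.68, below untreated cells by a log2 difference of -0.20 (q = 0.0189). H2O2 stood above NCS by 0.42 (SE 0.06, q = 7.61e-05). The fall in NCS was lost without untreated replicate 3 or NCS 24 h replicate 3 (q = 0.0633 to 0.141) and in a fit of only the groups compared (q = 0.0907).

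NEIL1 lies on chromosome 15. In GENCODE v29 (GRCh38), COMMD4 ends 3731 bases upstream of NEIL1 on the same strand, and MAN2C1, the microRNA gene MIR631 and an antisense gene overlap it on the other strand. In H2O2 at 4 h, COMMD4 differed from untreated cells by 0.03 (q = 0.665), MAN2C1 by -0.11 (q = 0.0053) and MIR631, at a mean rLog value of 1.2, by 0.08 (q = 0.00124). In H2O2 at 24 h, where NEIL1 was higher, MAN2C1 was higher by 0.21 (q = 1.02e-05) and MIR631 by 0.05 (q = 0.0248). COMMD4 was lower there, with a difference of -0.42 (q = 4.83e-06). In NCS at 24 h, where NEIL1 was lower, MAN2C1 was higher by 0.19 (q = 5.27e-05) and COMMD4 differed by -0.38 (q = 1.35e-05). MIR631 did not pass in NCS at 24 h (q = 0.95). The libraries were stranded, but the strand setting of the read counting is not given in the sources used here, and the part of reads from neighbouring genes in the NEIL1 values was not tested. Of the 3 RefSeq promoter windows of NEIL1, none held a match to the 4 motifs searched.

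The other glycosylase genes of the set moved less. OGG1, which removes 8-oxoguanine, had values between 8.34 and 8.50 in untreated cells, 8.16 and 8.30 in H2O2 at 24 h, and 8.17 and 8.29 in NCS at 24 h. Both 24 h groups lay below the untreated range, with differences of -0.19 (q = 0.00282) and -0.20 (q = 0.00256). At 4 h OGG1 differed from untreated cells by 0.04 in H2O2 (interval -0.06 to 0.14) and 0.04 in NCS (interval -0.06 to 0.14), and neither passed. At 8 h OGG1 was lower in H2O2 than in NCS by -0.15 (q = 0.0184), a call lost without H2O2 8 h replicate 3 or NCS 8 h replicate 2 (q = 0.0748 to 0.0808) and under quantile normalization (q = 0.0527). OGG1 in H2O2 at 8 h, at -0.10 from untreated cells (q = 0.135), passed without untreated replicate 1 (q = 0.0349). TADA3 and CAMK1 overlap OGG1 on the other strand in GENCODE v29, and BRPF1 ends 1926 bases upstream on the same strand. TADA3 and CAMK1 were lower in H2O2 than in NCS at 8 h, by -0.19 (q = 1.85e-05) and -0.11 (q = 0.0131). BRPF1 was higher there by 0.27 (q = 5.63e-05). In H2O2 at 24 h TADA3 was higher than in untreated cells by 0.09 (q = 0.00977). CAMK1 (q = 0.855) and BRPF1 (q = 0.147) did not pass. In NCS at 24 h BRPF1 differed from untreated cells by -0.25 (q = 9.07e-05), and TADA3 (q = 0.12) and CAMK1 (q = 0.0754) did not pass. The part of reads from these genes in the OGG1 values was not tested.

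MUTYH removes adenine placed opposite 8-oxoguanine. Its untreated libraries had 7.30, 7.54 and 7.44, the widest spread of its 7 groups, and the NCS libraries at 4 h had 7.55, 7.69 and 7.66, all above them. The difference was 0.21 (SE 0.06, q = 0.0174), and H2O2 at 4 h lay below NCS by -0.25 (q = 0.00221). At 24 h MUTYH was below untreated cells by -0.21 in NCS (q = 0.00732) and -0.15 in H2O2 (q = 0.0434). From 4 to 24 h in NCS it changed by -0.42 (q = 1.01e-05), the third largest fall of the 10 genes in that comparison. The rise in NCS at 4 h was lost without untreated replicate 1, NCS 4 h replicate 2 or NCS 4 h replicate 3 (q = 0.0589 to 0.121) and in a fit of only the groups compared (q = 0.111). The fall in NCS at 24 h was lost without untreated replicate 2 (q = 0.0568). The fall in H2O2 at 24 h, where the groups overlapped, was lost without any of 10 libraries (q = 0.0507 to 0.246). These were untreated replicates 2 and 3, H2O2 24 h replicates 1 and 2, H2O2 4 h replicate 2, NCS 4 h replicate 3, NCS 8 h replicate 1 and NCS 24 h replicates 1, 2 and 3. It was also lost in a fit of only the groups compared (q = 0.132). TOE1 overlaps MUTYH on the other strand in GENCODE v29, and in NCS at 4 h it differed from untreated cells by -0.11 (q = 0.126). At 24 h, where MUTYH was lower, TOE1 differed by -0.64 in H2O2 (q = 7.38e-10) and -0.76 in NCS (q = 6.99e-11). The part of reads from TOE1 in the MUTYH values was not tested.

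NTHL1, a second glycosylase for oxidized pyrimidines, rose and then fell in H2O2. Its libraries had 7.63, 7.77 and 7.72 untreated, 7.90, 7.87 and 7.82 at 4 h, then 7.50, 7.66 and 7.49 at 8 h. The groups at 4 h and untreated did not overlap, and those at 8 h and untreated did. The difference was 0.15 at 4 h (q = 0.0213) and -0.16 at 8 h (q = 0.0186), or -0.21 at 8 h without H2O2 8 h replicate 2. H2O2 was above NCS at 4 h by 0.18 (q = 0.00728). NTHL1 passed in none of the 3 NCS comparisons with untreated cells, with differences between -0.12 and -0.03. At 8 h in NCS it passed with library medians aligned (q = 0.0289). The rise at 4 h was lost without untreated replicate 1 or H2O2 4 h replicate 1 or 2 (q = 0.0523 to 0.112). The fall at 8 h was lost without untreated replicate 2 or 3 or H2O2 8 h replicate 1 or 3 (q = 0.0531 to 0.0926) and in a fit of only the groups compared (q = 0.118). TSC2, which overlaps NTHL1 on the other strand, differed by -0.12 in H2O2 at 4 h (q = 0.00215). In H2O2 at 8 h, where NTHL1 was lower, TSC2 differed by -0.22 (q = 4.98e-06). The part of reads from TSC2 in the NTHL1 values was not tested.

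The promoter windows of MUTYH and NTHL1 each held 1 match to the antioxidant response element TGACNNNGC, which 13.3% of all RefSeq windows hold. The letters were TGACACCGC in window 2 of the 3 of MUTYH and TGACGGGGC in the 1 window of NTHL1. Window 1 of MUTYH also held TGAATCA, a match to the AP-1 letters that 7.71% of all windows hold. The cAMP response element, found in 1.85% of windows, was in none of the 14.

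APEX1, the main nuclease for empty sites, varied little between replicates, with SDs within a group of at most 0.04. It was below untreated cells at 24 h by -0.16 in H2O2 (SE 0.02, q = 3.78e-05) and by -0.18 in NCS (q = 9.61e-06). Its libraries had 11.69, 11.77 and 11.74 untreated, 11.58, 11.57 and 11.59 in H2O2 at 24 h, and 11.54, 11.53 and 11.60 in NCS at 24 h, so neither treated group reached the untreated range. In NCS the fall was already seen at 8 h (-0.10, q = 0.00484), though not in a fit of only the groups compared (q = 0.0665). In H2O2 at 8 h the difference was -0.02 (interval -0.07 to 0.03). H2O2 exceeded NCS at 8 h by 0.08 (q = 0.0135), a call lost without NCS 8 h replicate 1 (q = 0.0834), under quantile normalization and in a fit of only the groups compared (q up to 0.0597).

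POLB, the gap-filling polymerase, moved the least of the 10 genes. Its untreated libraries had 8.31, 8.31 and 8.39 and those in H2O2 at 24 h had 8.47, 8.50 and 8.52, a difference of 0.16 (SE 0.03, q = 0.000823). It also passed as higher in NCS at 4 h (0.10, q = 0.0428). That call was lost without untreated replicate 1 or 2, any of the 3 NCS 4 h replicates, H2O2 4 h replicate 1, H2O2 24 h replicate 2 or NCS 8 h replicate 1 (q = 0.0512 to 0.152). Aligned library medians, a mean of at least 5 and a fit of only the groups compared also ended it (q up to 0.15). In H2O2 at 4 h and NCS at 24 h the differences were 0.08 and 0.08 and missed the threshold (q = 0.0521 and 0.0622). They passed under quantile normalization, without the mean-variance trend, and without untreated replicate 3 or H2O2 8 h replicate 1. The first also passed without H2O2 8 h replicate 2 or NCS 24 h replicate 3, and the second without NCS 24 h replicate 3 (lowest q of all these 0.00109 and 0.0013). Between H2O2 and NCS, POLB differed by -0.02 at 4 h (interval -0.09 to 0.05), 0.0014 at 8 h (interval -0.07 to 0.07) and 0.07 at 24 h (interval 0.0034 to 0.15), and none of these passed after adjustment.

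LIG3, the ligase that XRCC1 carries, separated the treatments early. Untreated libraries had 9.54, 9.55 and 9.56, and H2O2 libraries at 4 h had 9.35, 9.36 and 9.33. NCS libraries at 4 h had 9.57, 9.53 and 9.56, a wider range that held all the untreated values. The difference in H2O2 was -0.20 (SE 0.03, q = 4.97e-05), and in NCS it was 0.0013 (interval -0.07 to 0.07). H2O2 lay below NCS by -0.21 at 4 h (q = 4.94e-05) and by -0.19 at 8 h (q = 0.000191). H2O2 8 h replicate 2 had 9.54, close to untreated cells, while the other replicates had 9.39 and 9.39. The difference from untreated cells at 8 h was -0.11 (q = 0.0108), and it was -0.16 without that replicate (q = 4.68e-05). The 8 h call was lost without H2O2 8 h replicate 1 or 3 (q = 0.0670 to 0.0673) and in a fit of only the groups compared (q = 0.131). At 24 h both treatments lay below untreated cells, by -0.15 in H2O2 (q = 0.00077) and -0.15 in NCS (q = 0.00108), and they differed from each other by -0.0044 (interval -0.07 to 0.07). In NCS at 8 h, LIG3 was at 0.07 from untreated cells (q = 0.121), which passed without H2O2 8 h replicate 2 (q = 0.0202) and under quantile normalization (q = 0.0278).

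**Figure D3:**
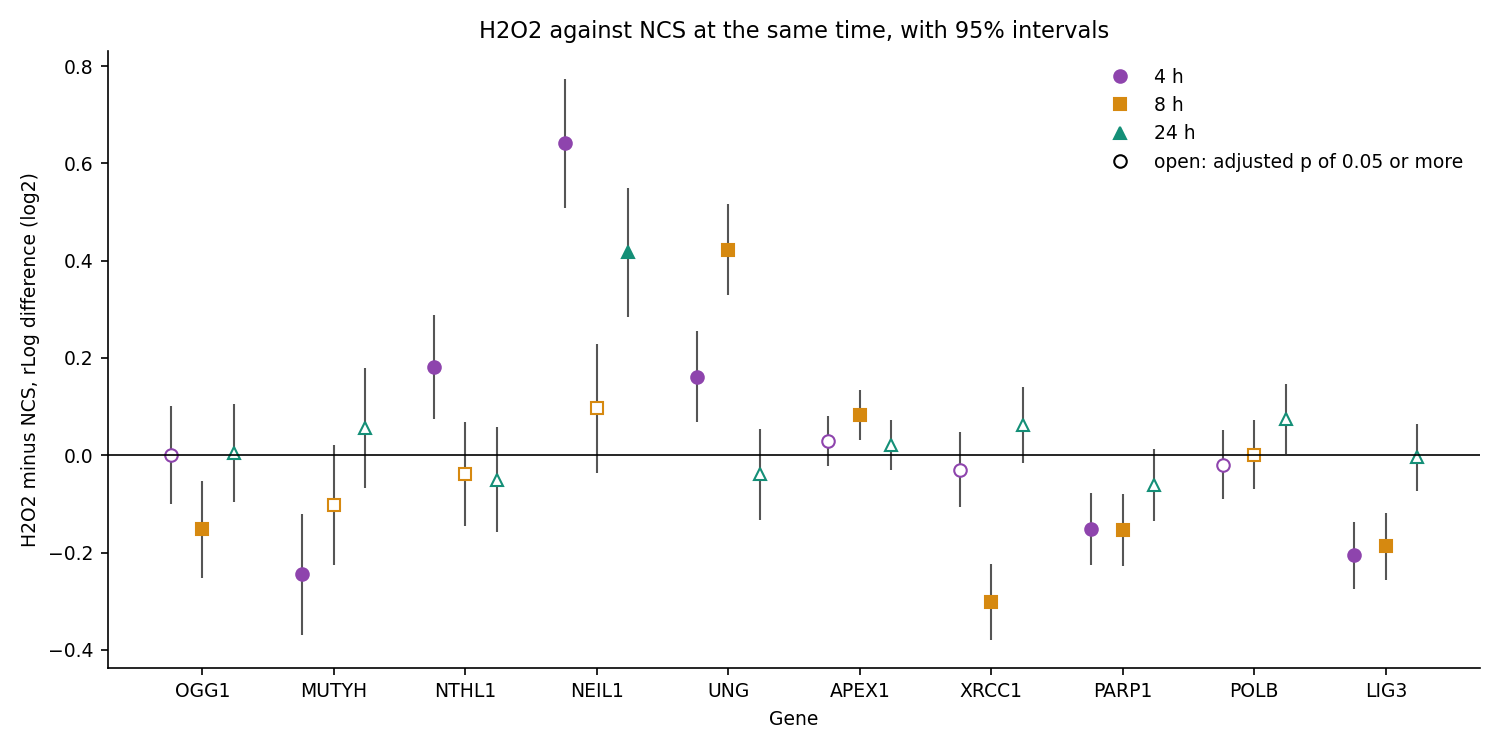
Difference of rLog group means between H2O2 and NCS at 4 h (circles), 8 h (squares) and 24 h (triangles) for the 10 genes, with 95% confidence intervals as lines and open symbols where the adjusted p-value was 0.05 or more. NEIL1 stands highest at 4 h (0.64) and is the only gene with a filled symbol at 24 h (0.42), and LIG3 and XRCC1 are lower in H2O2 at 8 h.

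H2O2 and NCS were compared directly at each time. At 4 h, 3 of the 10 genes were above their NCS level in H2O2 (NTHL1, NEIL1, UNG) and 3 lower (MUTYH, PARP1, LIG3), where 26.3% and 18% of all genes passed. At 8 h, 2 were higher (UNG, APEX1) and 4 lower (OGG1, XRCC1, PARP1, LIG3), where 18.7% and 15.4% of all genes passed. At 24 h, 1 was higher (NEIL1) and 0 lower, where 11% and 10.9% passed. The change of the H2O2 against NCS difference between 4 and 24 h passed for 4 of the 10 genes, 2 as higher (MUTYH, LIG3) and 2 as lower (NTHL1, UNG), where 16.6% and 22.7% of all genes passed.

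Within each treatment, which does not use the untreated libraries, most of these RNAs were lower in the later cells. From 4 to 24 h in H2O2, 0 of 10 genes passed as higher and 7 as lower, where 23.1% and 32.4% of all genes passed. The falls included UNG (-0.72), PARP1 (-0.69), NEIL1 (-0.37) and XRCC1 (-0.26). From 4 to 24 h in NCS, 0 passed as higher and 7 as lower, where 19.5% and 18.8% of all genes passed. PARP1 changed by -0.78, UNG by -0.52, MUTYH by -0.42 and XRCC1 by -0.35 in NCS. NTHL1 passed as lower only in H2O2 (-0.26, against -0.02 in NCS), and the test of that difference is the change given above for NTHL1.

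Related genes of the pathway were taken from lists that are not made of the 10 genes. The long-patch genes moved together at 24 h. Of 13 genes for long-patch synthesis and ligation, 12 were lower and 1 higher in H2O2, where 19.9% and 20.2% of all genes passed. In NCS 12 were lower and 1 higher, where 18.4% and 19.6% of all genes passed. The median log2 differences of the list were -1.04 in H2O2 and -1.16 in NCS. FEN1, the flap nuclease, had a difference of -1.57 in H2O2 (SE 0.04, q = 1.11e-15) and -1.59 in NCS. RFC3, a subunit of the clamp loader, had -1.35 and -1.46. The gene that rose was POLD4, a small subunit of polymerase delta (0.59 in H2O2, 0.71 in NCS). PCNA, the sliding clamp and a known p53 target, was higher at 4 h in H2O2 (0.34) and NCS (0.55) and at 8 h (0.41 and 0.31), and was among the genes lower at 24 h.

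S-phase genes fell as well. All 8 of the list (MCM2 to MCM7, CDC45, GINS2) were lower at 24 h in both treatments, with median differences of -1.42 in H2O2 and -1.45 in NCS. Of all genes tested, 19.9% and 18.4% passed as lower in these comparisons. All 8 were lower at 8 h in both, with medians of -0.36 and -0.48, where 18.6% and 13.3% of all genes passed as lower. At 4 h, 2 of 8 were lower in H2O2 and 1 of 8 in NCS, where 19.7% and 9.72% of all genes passed as lower. The deepest at 24 h was MCM3 (-1.59 in H2O2, -1.67 in NCS). The part of cell cycle position in the falls of PARP1, UNG and XRCC1 was not tested.

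Among 6 other glycosylase genes, 2 were higher and 2 lower in H2O2 at 24 h, where 20.2% and 19.9% of all genes passed in these directions. In NCS 2 were higher and 3 lower, against 19.6% and 18.4% of all genes. NEIL3, a glycosylase known for its expression in dividing cells, went from 7.94, 7.83 and 7.83 in untreated cells to 6.37, 6.27 and 6.41 in H2O2 and 6.23, 6.36 and 6.21 in NCS at 24 h, with differences of -1.52 (SE 0.07, q = 1.09e-12) and -1.60 (q = 5.22e-13). MBD4, which acts at mismatched CpG sites, was lower (-0.23 and -0.32). SMUG1, which like UNG removes uracil, was higher (0.27 and 0.33), as was MPG, a glycosylase for alkylated purines (0.17 and 0.20). At 4 h NEIL3 was already lower in H2O2 (-0.56) and NCS (-0.37), while NEIL1 was higher in H2O2.

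Among 10 genes for end processing and ADP-ribose handling, 2 were higher and 6 lower in H2O2 at 24 h, against 20.2% and 19.9% of all genes, and 2 were higher and 4 lower in NCS, against 19.6% and 18.4%. PARP2, which like PARP1 makes poly(ADP-ribose) at breaks, was lower (-0.57 in H2O2, -0.75 in NCS), and PARP3 was higher (0.36 and 0.59). TDP1, which clears blocked 3′ ends, was lower (-0.90 and -0.79). PARG, which removes poly(ADP-ribose), was lower at 4 h in H2O2 (-0.30) and NCS (-0.15). DUT, which breaks down dUTP, the source of the uracil that UNG removes, was lower at 24 h in both treatments (-0.74 in H2O2, -0.76 in NCS).

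**Figure D4:**
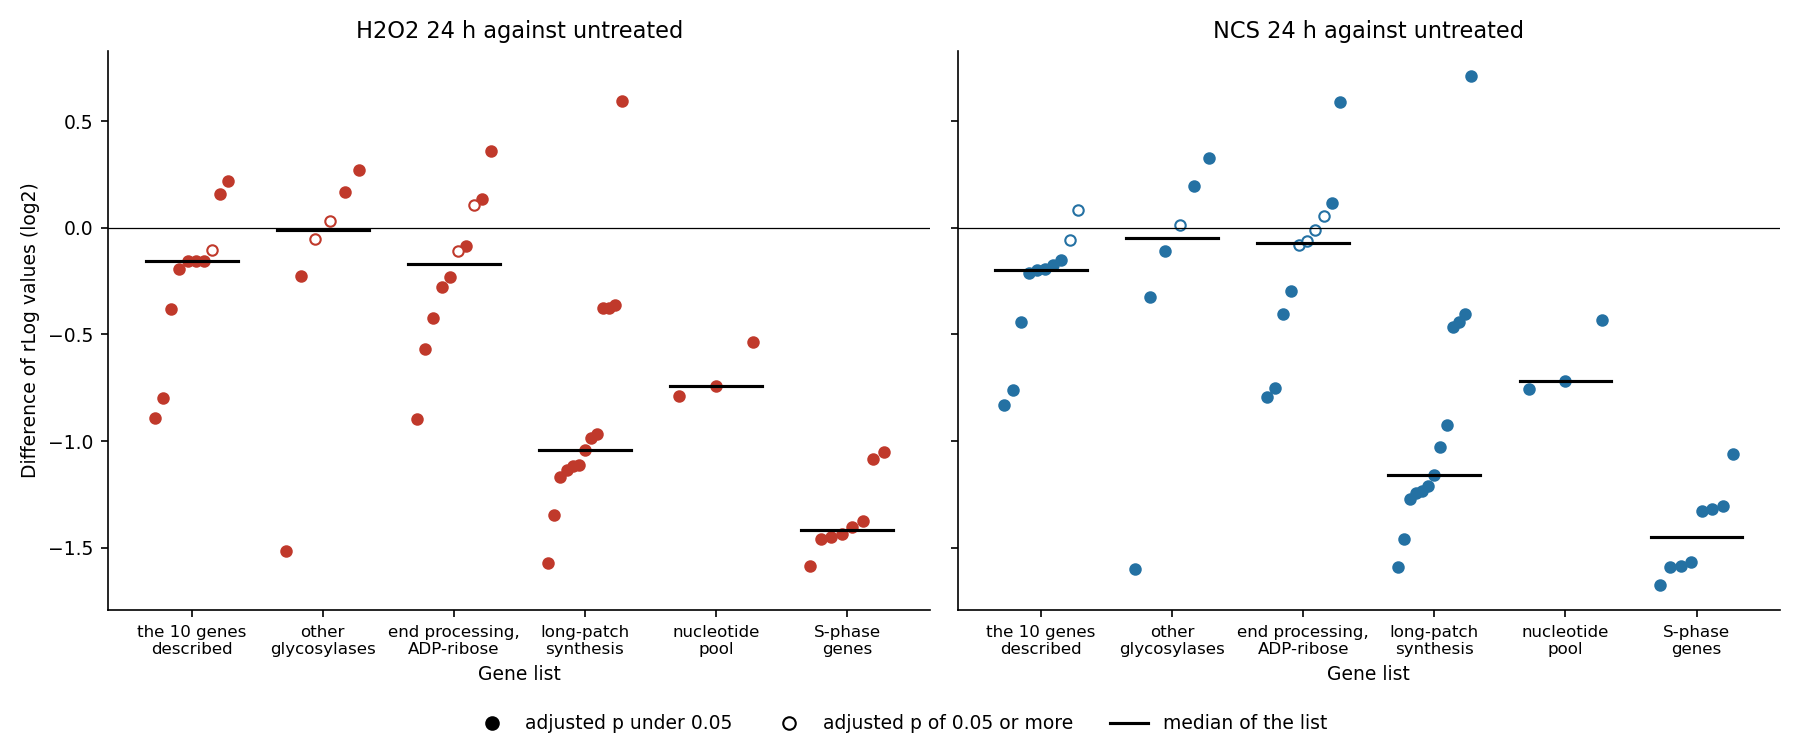
Log2 difference from untreated cells at 24 h for each gene of 6 lists in H2O2 (left, red) and NCS (right, blue), with filled points where the adjusted p-value was under 0.05 and black lines at the list medians. The 10 genes described lie between -0.89 and 0.22 in H2O2, above most of the long-patch and S-phase genes, whose medians are -1.04 and -1.42.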

How the data were processed

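RNA of hTERT-HPNE cells was sequenced in 7 groups of 3 biological replicates. The authors prepared stranded mRNA libraries, mapped the reads by HISAT2, obtained gene counts by htseq-count and put these through the rLog step of DESeq2. The deposited values are log2 values normalized for library size. The submitters' processing notes name the build hg19, and the annotation, the strand setting and the tool versions are not given in the sources used here. No counts were at hand, so depth is unknown and no interval or detection limit based on it was calculated.

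Of 23368 genes, 3674 at 0 in every library were left out. The other 19694 entered limma 3.58.1 (R 4.3.3) as deposited. One model held all 7 groups, a mean-variance trend was used, and p-values were adjusted over all 19694 genes by Benjamini-Hochberg (q). There were 12 comparisons, 6 with untreated cells, 3 of H2O2 with NCS, 2 of 24 h with 4 h, and the change of the H2O2 against NCS difference between 4 and 24 h. A difference passed where q was under 0.05. Intervals are 95% intervals of the fit. The fit was tested on simulated data. The members and the gene lists were chosen with earlier results of these data known. Some genes of the other lists are not reported here. From those lists the text names up to 2 rises and 2 falls per comparison that passed and were largest in size. For the 2 members whose group means spanned most, the 3 genes with the highest Pearson correlation over the group means are named. COMMD4, MAN2C1, MIR631, TOE1, TSC2, TADA3, CAMK1 and BRPF1 were added as neighbours after values were seen. Other members, among them XRCC1, LIG3, UNG and POLB, also have genes that overlap them or end upstream on their strand. The values of those neighbours are not reported here, and the part of their reads in the members was not tested.

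Alternatives were a model of only the compared groups, quantile normalization, aligned library medians, no mean-variance trend, a block for the replicate number, genes with a mean of 5 or more, and leaving out each of the 21 libraries. Promoter windows came from RefSeq (GRCh38.p14), and gene overlaps from GENCODE v29 (GRCh38). Figures were drawn with matplotlib 3.10.9 in Python 3.11.15.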

Additional observations from a re-analysis of the deposited data

Results flagged for a closer look

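For 4 of the 10 genes, the difference between H2O2 and NCS at 24 h was unlike that at 4 h, by the test of the change itself in limma. It was higher in 2 and lower in 2. These counts are near the shares of all genes tested that passed in these directions, 16.6% and 22.7%. MUTYH went from -0.25 at 4 h to 0.06 at 24 h, a change of 0.30 (SE 0.08, q = 0.00739). LIG3 went from -0.21 to -0.0044, a change of 0.20 (SE 0.05, q = 0.00203). NTHL1 went from 0.18 to -0.05, a change of -0.23 (SE 0.07, q = 0.0162). UNG went from 0.16 to -0.04, a change of -0.20 (SE 0.06, q = 0.0166). In all 4 genes the size of the difference was larger at 4 h than at 24 h. These 4 calls held in each of the 6 alternative fits and without each of the 21 libraries. The change for NEIL1, from 0.64 to 0.42, was -0.22 and missed the threshold (q = 0.0541), and it passed without H2O2 24 h replicate 1, NCS 4 h replicate 2 or NCS 24 h replicate 3, with library medians aligned and with a mean of at least 5 (lowest q 0.00694). That for PARP1 (0.09, q = 0.159) passed under quantile normalization, in a fit of only the groups compared and without H2O2 8 h replicate 2 (lowest q 0.0443).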

How the results depend on the processing

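Of 720 results for single genes in the 6 alternative fits, 675 kept their direction and their side of the threshold, 15 lost the call, 15 gained one and 15 changed sign. With 1 library left out, this held for 2425 of 2520. All changes of sign were in differences that passed in neither fit. Depth is unknown, so its limit on small differences could not be given, and rLog shrinkage makes differences of genes with few reads smaller. The causes of changed calls were not tested.

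Under a replicate block, the count for H2O2 24 h against untreated cells stayed at 7 lower and 2 higher, and the block changed no call for any of the 10 genes. The numbers are not known to pair the samples: deviations from group means had a mean correlation of 0.02737 between libraries with the same number and -0.01368 between others, and 12 of 21 libraries correlated best with their own number.

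Only the counts that changed most in proportion are listed in this paragraph and the next, and others shifted less. For example, a fit of only the groups compared gave 6 genes lower instead of 7 in H2O2 at 24 h. In NCS at 24 h it gave 7 lower instead of 8. Quantile normalization gave 1 gene higher instead of 0 in H2O2 at 8 h, NCS at 8 h and NCS at 24 h. It gave 1 instead of 2 for H2O2 over NCS at 8 h. A fit of only the groups compared gave 3 genes lower instead of 5 in H2O2 at 8 h, 0 higher instead of 2 in NCS at 4 h, and 1 higher instead of 2 for H2O2 over NCS at 8 h. Aligned library medians and a mean of at least 5 each gave 1 gene higher in NCS at 4 h, and aligned medians gave 1 lower instead of 0 for H2O2 against NCS at 24 h. Without the mean-variance trend, 1 gene instead of 0 was higher in NCS at 24 h and in H2O2 from 4 to 24 h.

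With 1 library left out, the count of genes higher lay between 1 and 3 in H2O2 at 4 h, 0 and 2 in NCS at 4 h, 0 and 1 in NCS at 8 h, 0 and 1 in NCS at 24 h, 1 and 2 for H2O2 over NCS at 8 h, and 0 and 1 in H2O2 from 4 to 24 h. The count lower in H2O2 at 8 h lay between 3, without H2O2 8 h replicate 1 or 3, and 6, without untreated replicate 1.

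With library medians aligned, the sign changed for LIG3 in NCS at 4 h (-0.012), MUTYH in NCS at 8 h (-0.0063), OGG1 in H2O2 less NCS at 4 h (-0.0013) and 24 h (-0.022), APEX1 in H2O2 less NCS at 24 h (-0.0049), POLB from 4 to 24 h in NCS (0.00032) and the change of H2O2 less NCS for OGG1 (-0.021). Under quantile normalization it changed for NEIL1 in H2O2 at 8 h (-0.0094), APEX1 in NCS at 4 h (0.0051), POLB in H2O2 less NCS at 4 h (0.036), OGG1 in H2O2 less NCS at 24 h (-0.032), NTHL1 (0.021) and POLB (0.031) from 4 to 24 h in NCS, and the change of H2O2 less NCS for OGG1 (-0.088) and APEX1 (0.034).

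With 1 library left out, 18 differences spanned 0. Against untreated cells these were in H2O2 at 4 h OGG1 (-0.0039 to 0.080), MUTYH (-0.099 to 0.022) and APEX1 (-0.0026 to 0.039), and in H2O2 at 8 h NEIL1 (-0.014 to 0.029) and APEX1 (-0.041 to 0.00073). In NCS at 4 h they were OGG1 (-0.0045 to 0.079), NTHL1 (-0.068 to 0.0011), APEX1 (-0.031 to 0.011) and LIG3 (-0.0077 to 0.014), and in NCS at 8 h MUTYH (-0.047 to 0.073). For H2O2 less NCS they were OGG1 at 4 h (-0.033 to 0.029) and 24 h (-0.032 to 0.041), POLB at 8 h (-0.034 to 0.020) and LIG3 at 24 h (-0.016 to 0.0054). From 4 to 24 h in NCS they were NTHL1 (-0.064 to 0.010) and POLB (-0.033 to 0.0046), and for the change of H2O2 less NCS they were OGG1 (-0.032 to 0.041) and APEX1 (-0.023 to 0.015).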

Other observations

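Related genes also differed between the stresses at matched times. At 4 h the nuclease gene APEX2 was lower in H2O2 than in NCS by -0.22 (q = 0.00102). LIG1, the ligase of the long-patch route, was lower in H2O2 by -0.40 at 4 h (SE 0.04, q = 4.21e-07) and -0.27 at 8 h (q = 7.43e-05). POLD3, a subunit of polymerase delta, was lower by -0.44 at 4 h (q = 1.58e-06). MBD4 was higher in H2O2 at 8 h by 0.34 (q = 2.04e-06), and SMUG1 was lower at 4 h (-0.22) and 8 h (-0.27). PARP3 was lower in H2O2 than in NCS at 8 h by -0.24 (q = 1.92e-05) and at 24 h by -0.23 (q = 6.71e-05), and PARP2 was higher in H2O2 at 24 h by 0.18 (q = 0.00292).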
